A study of Mus musculus with 15 samples.

Results

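The transcription factor genes that set plasma cell and B cell identity were followed across 5 myeloma lines of the mouse, numbered IL6Myc-1 to IL6Myc-5. The members were the 10 genes named XBP1, IRF4, PRDM1, POU2AF1, PAX5, EBF1, BCL6, BACH2, SPIB and IRF8 in the deposited table, which holds 32434 gene rows. All 10 had a row. They were chosen by name, as factors known to drive plasma cells or to hold the B cell state, with earlier results of these data known. They are written below as mouse symbols. All 5 lines carry the genotype IL6Myc, were derived from IL6Myc mice as a model of multiple myeloma, and have no treatment or age in the labels. Total RNA was sequenced from each line in 3 technical replicates, so 15 libraries represent 5 lines and no normal plasma cell or B cell stands beside them. The p-values below measure the spread between technical replicates of single lines, not the spread between animals or independent cultures. A library held 19068543 to 41165599 estimated counts, and log2 profiles correlated at 0.994 to 0.997 within a line and 0.918 to 0.967 between lines. Levels are CPM, counts relative to library sizes scaled by TMM, and each ± is the SD between the 3 replicates of that line unless an SE is named. A gene is called where edgeR's quasi-likelihood test gave an adjusted p under 0.05 and a log2 difference of at least 1.

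A B cell becomes a plasma cell when one network of transcription factors replaces another. Pax5 and Ebf1 hold the B cell programme, Bcl6 and Bach2 keep germinal centre and memory B cells from differentiating, and Spib and Irf8 act in mature B cells. Irf4 and Prdm1, which encodes Blimp-1, drive the switch and repress B cell genes, and Prdm1 and Bcl6 repress each other. Xbp1 then builds up the secretory apparatus. Pou2af1, which encodes the coactivator OBF-1 of the octamer factors, serves both stages.

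The plasma cell factors were abundant and nearly level over the lines, and the B cell factors were low or near 0. Per kilobase of exon, line means ran from 658 to 797 CPM for Xbp1, 446 to 638 for Pou2af1, 202 to 252 for Irf4 and 31.0 to 36.5 for Prdm1. On the same scale Ebf1 reached 1.15 to 5.14 and Bcl6 1.15 to 2.95 CPM per kilobase. Spib, Pax5, Bach2 and Irf8 stayed at or below 0.329, 0.106, 0.0688 and 0.0147 CPM per kilobase. The lowest line mean of any of the 4 abundant genes thus lay above the highest line mean of each of the other 6. In such bulk libraries, fewer cells that express a gene and less RNA per cell cannot be told apart.

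**Figure D1:**
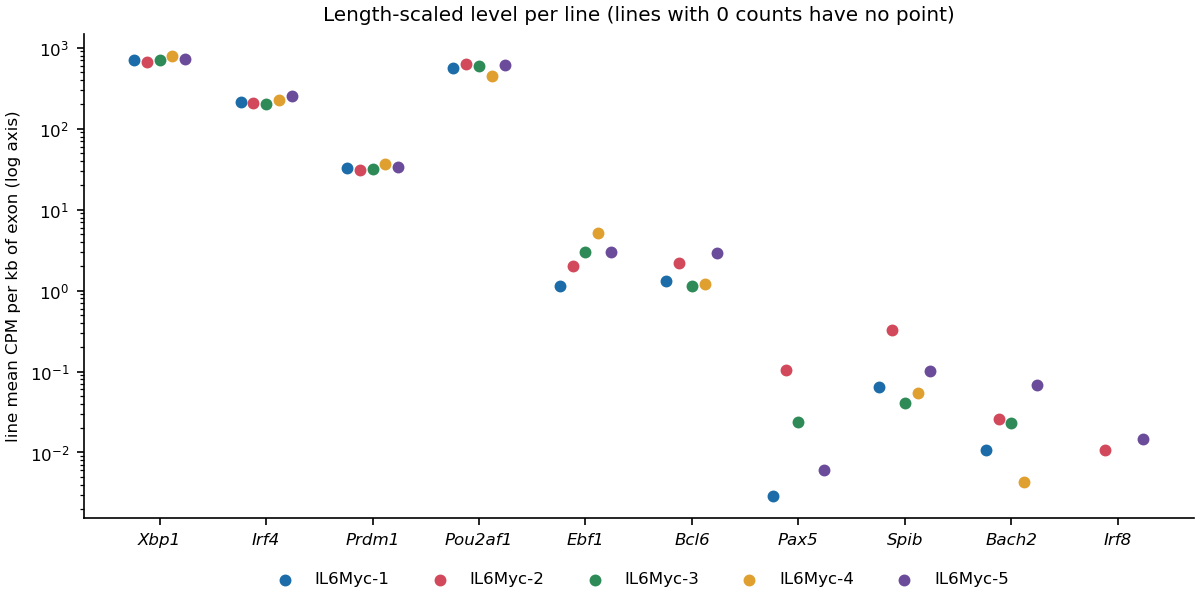
Line means of the 10 transcription factor genes in CPM per kilobase of exon, on a log axis, with 1 point per line; lines with 0 counts have no point. Xbp1, Pou2af1, Irf4 and Prdm1 lie at 31.0 or above in every line, and the other 6 genes lie at 5.14 or below.

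At least 1 CPM in 3 libraries was asked of a gene before it was tested, and 11773 genes passed. The 6 members that passed were Xbp1, Irf4, Prdm1, Pou2af1, Ebf1 and Bcl6, each above that level in all 15 libraries. Over the 5 lines, 2 of these 6 were called, Ebf1 and Bcl6. Of all genes tested 32.1% were called, so the share of members called was close to that of the background. The difference between the highest and the lowest line had a median of 0.42 on the log2 scale over the 6 members and 0.70 over all genes tested. For the 4 members that did not pass, Pax5, Spib, Bach2 and Irf8, a fit without the filter is given further on.

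Xbp1 encodes the factor of the unfolded protein response that is made active by Ern1 (IRE1) splicing of its mRNA; spliced and unspliced forms are not separated in these gene counts. Its level was 1904 ± 28.4 CPM in IL6Myc-4, the highest line, 1757 ± 84.9 in IL6Myc-5, 1711 ± 35.2 in IL6Myc-3, 1681 ± 41.9 in IL6Myc-1 and 1573 ± 33.5 in IL6Myc-2. The 3 libraries of IL6Myc-4 held 1911, 1928 and 1872 CPM, above the 12 libraries of the other lines, whose highest value was 1826. The range over the lines was 0.28 on the log2 scale, with an adjusted p of 5.3e-05 in edgeR's F-test, and Xbp1 was not called. IL6Myc-5, IL6Myc-3 and IL6Myc-1, next to each other in this order, did not differ beyond the replicate spread (edgeR adjusted p = 0.406 and 0.570). Of all genes tested, 8.26% had a smaller range than Xbp1.

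Irf4, the interferon regulatory factor that human myeloma cells depend on, stood at 1200 ± 35.7 CPM in IL6Myc-5 and 1094 ± 19.3 in IL6Myc-4, against 1013 ± 34.5 in IL6Myc-1, 977 ± 8.33 in IL6Myc-2 and 964 ± 15.7 in IL6Myc-3. IL6Myc-5 held 1175, 1185 and 1241 CPM, above every other library. The range was 0.32 on the log2 scale (edgeR F-test, adjusted p = 7.02e-07), below the size threshold, and 12.1% of genes tested had a smaller one. The 3 lower lines were not separated: IL6Myc-1 over IL6Myc-2 had an adjusted p of 0.174 and IL6Myc-2 over IL6Myc-3 of 0.643 in edgeR.

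Prdm1 was the most even of the members tested. It averaged 196 ± 11.3 CPM in IL6Myc-4, 181 ± 6.92 in IL6Myc-5, 175 ± 2.16 in IL6Myc-1, 172 ± 2.31 in IL6Myc-3 and 167 ± 5.49 in IL6Myc-2. The 3 libraries of IL6Myc-4 held 203, 202 and 183 CPM, and the lowest of them overlapped those of IL6Myc-5 at 184, 187 and 174 CPM. The range of 0.23 on the log2 scale (edgeR F-test, adjusted p = 0.000979) was larger than that of only 5.24% of the genes tested. Below IL6Myc-4, no neighbours in the order differed beyond the replicate spread, with edgeR adjusted p-values of 0.327, 0.676 and 0.349.

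Pou2af1 had the widest range of the 4 plasma cell factors, 0.52 on the log2 scale, and was not called either (edgeR F-test, adjusted p = 8.69e-09). It stood at 1135 ± 12.3 CPM in IL6Myc-4, against 1625 ± 50 in IL6Myc-2, 1560 ± 12.6 in IL6Myc-5, 1507 ± 18.8 in IL6Myc-3 and 1445 ± 70.1 in IL6Myc-1. The 3 libraries of IL6Myc-4 held 1129, 1127 and 1149 CPM and the lowest of the other 12 held 1400, so the groups did not overlap. IL6Myc-4 minus the mean of the other 4 lines was -0.43 ± 0.03 (SE) on the log2 scale, with an edgeR adjusted p of 1.84e-09. IL6Myc-4 carried the highest Xbp1 and Prdm1 levels and the lowest Pou2af1 level of the 5 lines.

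The region before the start of Pou2af1 is shown because it holds the element bound by Xbp1, which was found in no other window of the members. The sequence runs from 250 bases before to 50 bases after the start of transcription in RefSeq's GRCm38.p6 annotation, chr9:51213440-51213739, plus strand, and the capitals mark the element TGACGTGG.
Pou2af1: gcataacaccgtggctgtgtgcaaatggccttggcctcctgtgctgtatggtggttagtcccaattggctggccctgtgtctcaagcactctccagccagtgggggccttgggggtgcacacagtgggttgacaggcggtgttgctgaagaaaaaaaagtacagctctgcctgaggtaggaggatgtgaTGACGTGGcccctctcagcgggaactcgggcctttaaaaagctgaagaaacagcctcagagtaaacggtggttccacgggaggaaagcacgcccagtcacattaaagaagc
The element begins at position -61 from the start. It was found on either strand in 0.676% of 32851 such windows of all genes. Across the lines, Pou2af1 and Xbp1 did not follow 1 order: IL6Myc-4 was highest for Xbp1 and lowest for Pou2af1, and IL6Myc-2 was lowest for Xbp1 and highest for Pou2af1. A match describes the letters in the window and is not evidence of binding.

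**Figure D2:**
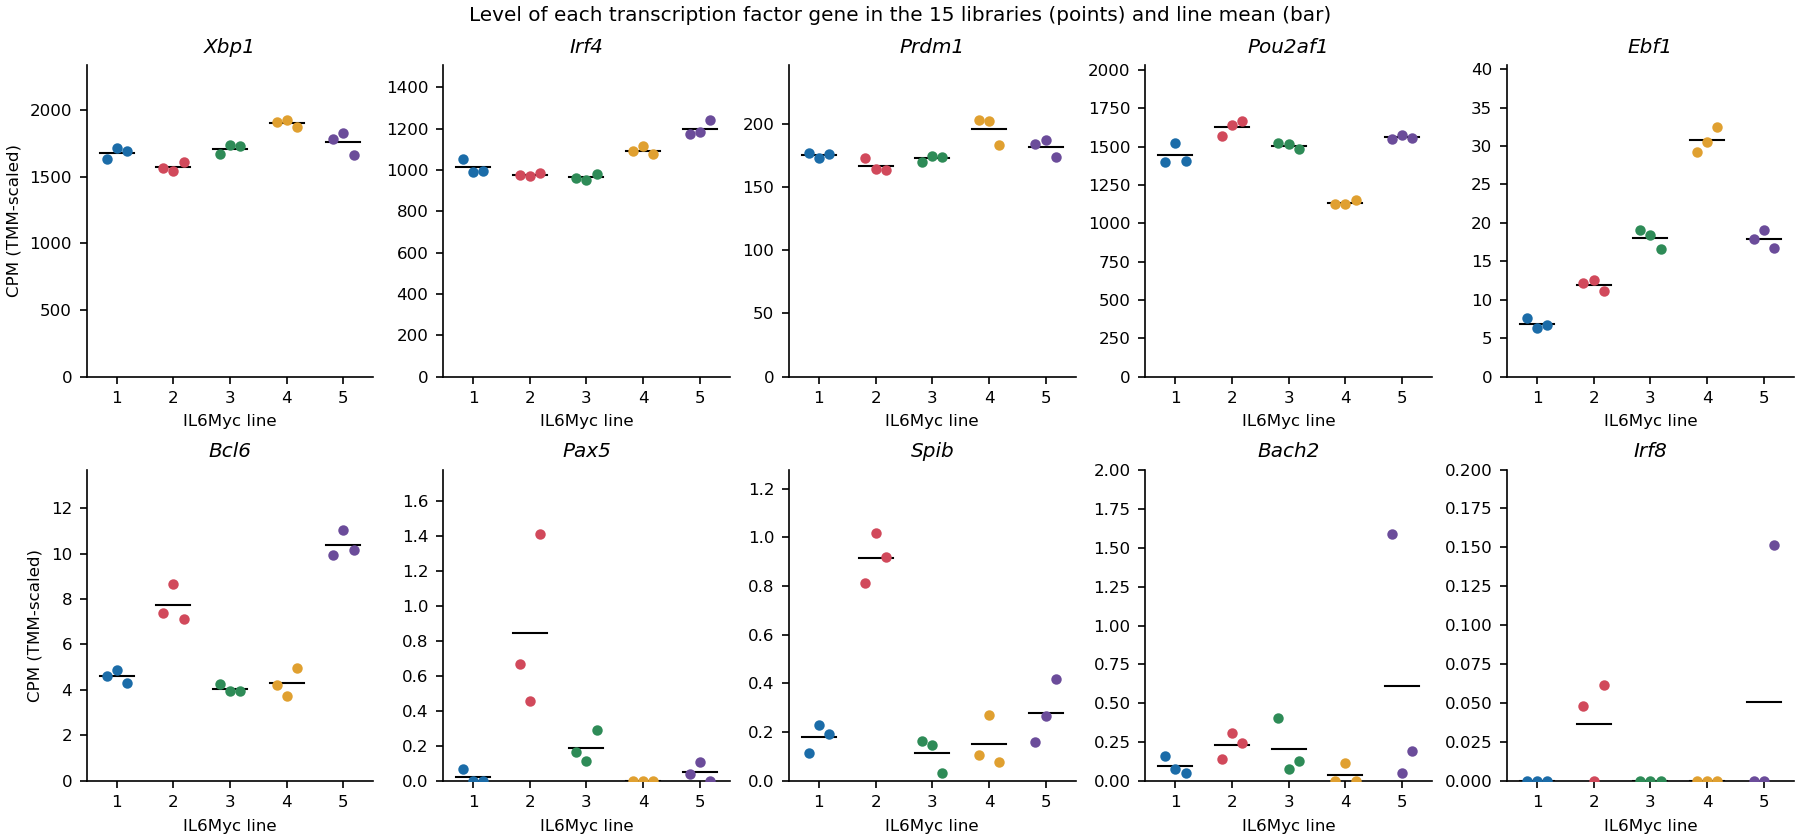
CPM of each transcription factor gene in the 15 libraries, with 1 point per library, a bar at the line mean and a separate linear axis from 0 for each gene. The bars of Xbp1, Irf4 and Prdm1 are nearly level, IL6Myc-4 is low for Pou2af1 and high for Ebf1, IL6Myc-5 is high for Bcl6, and 1 library of IL6Myc-5 carries most of Bach2.

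Ebf1, the early B cell factor that with Pax5 specifies the B lineage, differed most among the members tested. It was highest in IL6Myc-4, at 29.3, 30.5 and 32.5 CPM in the 3 libraries. IL6Myc-3 held 19.0, 18.4 and 16.5 CPM and IL6Myc-5 17.9, 19.0 and 16.7 CPM. IL6Myc-2 held 12.2, 12.6 and 11.1 CPM and IL6Myc-1 7.65, 6.31 and 6.68 CPM. The libraries of IL6Myc-3 and IL6Myc-5 overlapped, and no other lines did. The mean in IL6Myc-4 was 4.47-fold that in IL6Myc-1, and the range of 2.15 on the log2 scale (edgeR F-test, adjusted p = 1.21e-11) exceeded that of 86.4% of genes tested.

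Against the mean of the other 4 lines, Ebf1 was higher in IL6Myc-4 by 1.27 ± 0.06 (SE) on the log2 scale (edgeR adjusted p = 2.06e-11), a contrast in which 9.65% of genes tested were called. In IL6Myc-1 the difference was -1.42 ± 0.08 (edgeR adjusted p = 7.38e-11), where 12.5% of genes were called. Every step in the order of levels passed the p threshold in edgeR except that between IL6Myc-3 and IL6Myc-5, which differed by 0.01 ± 0.08 (adjusted p = 0.916). The step of IL6Myc-4 over IL6Myc-3 was 0.77 ± 0.08 (adjusted p = 5.53e-07), that of IL6Myc-5 over IL6Myc-2 0.57 ± 0.09 (4.03e-05), and that of IL6Myc-2 over IL6Myc-1 0.79 ± 0.10 (1.48e-06).

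IL6Myc-4, the line with the highest Ebf1, also held the most RNA of T cell and myeloid markers. The 9 markers of T and NK cells summed to 41.6 to 44.3 CPM there, against 3.51 to 21.9 CPM in libraries of the other 4 lines. Of the 9, 4 reached 1 CPM in IL6Myc-4 and 4 in IL6Myc-3. The 11 myeloid markers summed to 716 to 775 CPM in IL6Myc-4, against 142 to 310 CPM in the others, mostly as C1qb at 490 ± 25.9 CPM, C1qc and Cd68. Of the T and NK markers, Cd3g at 21.98 ± 0.47 CPM, Prf1 at 14.8 ± 1.41, Cd3d at 3.42 ± 0.13 and Cd4 at 2.92 ± 0.29 were called higher in IL6Myc-4, as were C1qb and C1qc. Cd3d, Cd3g and Cd4 were also called higher in IL6Myc-2, where Cd3d was highest, at 7.61 ± 1.02 CPM. Cd3g was called higher in IL6Myc-1 too, and Prf1 in IL6Myc-3. Itgam was highest in IL6Myc-2 at 11.6 ± 0.23 CPM, and Mpo reached at most 1.37 CPM in any line mean. Gzmb, Ncr1 and S100a8 of these lists were at 0 counts in all 15 libraries. Others were near it: Cd3e had 14 counts, Lyz2 4, C1qa 2 and Csf1r 49. The 8 dendritic cell markers had their lowest sum in IL6Myc-4, at 7.36 to 7.84 CPM, against 11.6 to 18.3 CPM in the others. Not each of them was lowest there: Ccr9 held 0.294 CPM in IL6Myc-1 and 0.720 in IL6Myc-4. The 8 stromal and endothelial markers summed to 25.2 to 26.4 CPM in IL6Myc-4, against 14.4 to 27.5 CPM in the others. The part of these markers in the Ebf1 difference was not tested.

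Of the other genes tested, those whose profiles over the 15 libraries lay nearest to that of Ebf1 were Irgm1, Btd and Cacnb3, with root mean square differences of 0.165, 0.199 and 0.220 between centred log2(CPM + 1) values. Irgm1, an interferon-inducible GTPase, averaged 73.95 CPM in IL6Myc-4 and 16.2 CPM in IL6Myc-1. Btd encodes biotinidase and Cacnb3 a calcium channel subunit. This nearness was measured over 5 lines in 3 technical copies and among 11015 genes, so it is a description of these libraries.

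Bcl6, the repressor that maintains germinal centre B cells, was highest in IL6Myc-5, at 9.95, 11.0 and 10.2 CPM. IL6Myc-2 followed at 7.40, 8.64 and 7.11 CPM. IL6Myc-1 held 4.62, 4.86 and 4.32 CPM, IL6Myc-4 4.22, 3.72 and 4.95 CPM and IL6Myc-3 4.28, 3.93 and 3.96 CPM. IL6Myc-5 and IL6Myc-2 overlapped neither each other nor the 3 lower lines, whose libraries intermingled. The mean in IL6Myc-5 was 2.56-fold that in IL6Myc-3, and the range was 1.35 on the log2 scale (edgeR F-test, adjusted p = 2.44e-08), above that of 77% of genes tested.

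IL6Myc-5 minus the mean of the other 4 lines was 1.05 ± 0.09 (SE) on the log2 scale for Bcl6 (edgeR adjusted p = 4.4e-08), in a contrast that called 7.98% of genes. The size lay just over the threshold: limma on log2(CPM + 1) gave 0.92 with an adjusted p of 7.2e-08, which is not a call. IL6Myc-5 over IL6Myc-2 was 0.42 ± 0.12 (edgeR adjusted p = 0.0058) and IL6Myc-2 over IL6Myc-1 0.75 ± 0.12 (4.47e-05). Among the 3 lower lines no pair passed, with edgeR adjusted p-values of 0.494, 0.612 and 0.222. The markers of T and NK cells had their lowest sum in IL6Myc-5, at 3.51 to 4.10 CPM.

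Bcl6 is known to respond to STAT factors, which IL-6 activates, so its windows were searched for the STAT element TTCNNNGAA, which reads alike on both strands. One of its 2 annotated windows is shown because it holds 3 such elements and an ETS-IRF composite element, GGAANNGAA. It is chr16:23981234-23981533, minus strand, from RefSeq's GRCm38.p6 annotation, with those elements in capitals.
Bcl6: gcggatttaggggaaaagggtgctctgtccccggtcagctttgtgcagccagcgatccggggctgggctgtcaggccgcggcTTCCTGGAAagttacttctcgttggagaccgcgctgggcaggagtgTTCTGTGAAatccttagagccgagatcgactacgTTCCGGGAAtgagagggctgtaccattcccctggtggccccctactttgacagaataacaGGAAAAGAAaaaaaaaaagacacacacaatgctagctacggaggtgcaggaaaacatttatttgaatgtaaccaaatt
The STAT elements begin at positions -168, -122 and -88 and the ETS-IRF element at -28, with no overlap. At least 1 STAT element stood in 8.3% of the 32851 windows of all genes and an ETS-IRF element in 8.24%. The other Bcl6 window held 1 STAT element, at -118. Among the remaining members, Irf8 held 2 STAT elements, at -171 and -153, and Bach2 held a STAT element at -140 and an ETS-IRF element at -16. The octamer ATGCAAAT (in 1.74% of all windows), the Prdm1 element GTGAAAGT (0.846%) and the Ebf1 element CCCNNGGGA (6.56%) were searched on both strands too and matched in none of the 13 windows of the 10 members. No match says only that these letters are not in these windows.

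Among the profiles near that of Bcl6 were those of Ticam1 and Rps24, at root mean square differences of 0.178 and 0.181. Ticam1 encodes the adaptor TRIF of Toll-like receptor signalling and Rps24 a protein of the small ribosomal subunit. Ticam1 averaged 48.0 CPM in IL6Myc-5, against 24.9 CPM in IL6Myc-3.

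**Figure D3:**
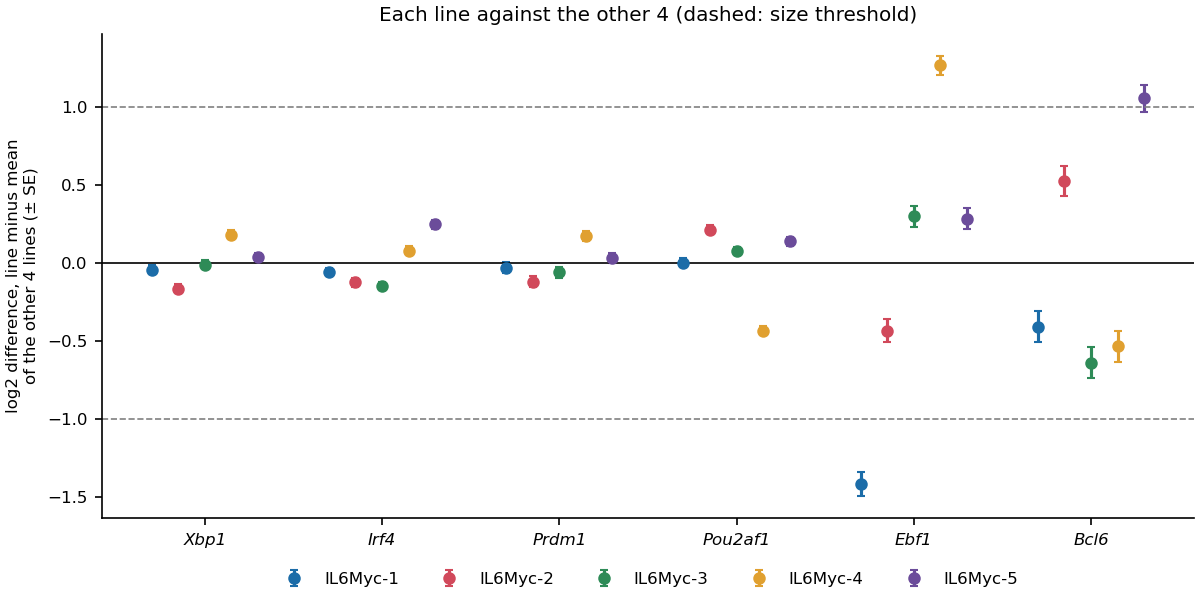
Log2 difference of each line from the mean of the other 4 lines for the 6 members tested, with SE as bars and the size threshold of 1 dashed. Only Ebf1 in IL6Myc-4 (1.27) and IL6Myc-1 (-1.42) and Bcl6 in IL6Myc-5 (1.05) lie beyond it.

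Seen line by line, 1 of the 6 members tested was called in IL6Myc-1, 1 in IL6Myc-4 and 1 in IL6Myc-5. Of all genes tested, 12.5%, 9.65% and 7.98% were called in these lines. In IL6Myc-2 and IL6Myc-3 edgeR called 0 members, against 12.7% and 7.65% of genes tested, although all 6 and 4 of 6 had an unadjusted p under 0.05. DESeq2 and limma also called 0 there. The largest differences in IL6Myc-2 and IL6Myc-3 were those of Bcl6, at 0.52 ± 0.10 (SE) and -0.64 ± 0.10 (SE) on the log2 scale. With 6 members tested, 0 or 1 called in a line cannot be told apart from the shares over all genes.

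Over the 10 pairs of lines, Ebf1 was called in 4 and Bcl6 in 3, and none of the 4 plasma cell factors in any, although 5 to 7 of the pairs passed the p threshold alone for each of those. For Ebf1 the called pairs were IL6Myc-4 over IL6Myc-1 at 2.15 ± 0.09, IL6Myc-3 over IL6Myc-1 at 1.37 ± 0.09, IL6Myc-5 over IL6Myc-1 at 1.36 ± 0.09 and IL6Myc-4 over IL6Myc-2 at 1.36 ± 0.09, all as log2 differences with SE. For Bcl6 they were IL6Myc-5 over IL6Myc-3 at 1.35 ± 0.12, over IL6Myc-4 at 1.27 ± 0.12 and over IL6Myc-1 at 1.17 ± 0.12. IL6Myc-5 over IL6Myc-1 was therefore the pair with 2 called members, where 14.6% of genes tested were called.

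The pairs with 1 called member had background shares of 11.4% (IL6Myc-3 over IL6Myc-1), 15.7% (IL6Myc-4 over IL6Myc-1), 14.0% (IL6Myc-4 over IL6Myc-2), 9.86% (IL6Myc-5 over IL6Myc-3) and 11.3% (IL6Myc-5 over IL6Myc-4). The pairs with none had shares of 19.0% (IL6Myc-2 and IL6Myc-1), 14.0% (IL6Myc-3 and IL6Myc-2), 12.2% (IL6Myc-5 and IL6Myc-2) and 11.5% (IL6Myc-4 and IL6Myc-3). IL6Myc-2 and IL6Myc-1, with the largest share of genes called, thus had no called member.

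The mutual repressors Prdm1 and Bcl6 were set against each other within each library. Prdm1 had 17.5 ± 0.87 counts for each count of Bcl6 in IL6Myc-5 and 21.7 ± 2.40 in IL6Myc-2. The ratio was 38.2 ± 2.55 in IL6Myc-1, 42.5 ± 2.53 in IL6Myc-3 and 46.5 ± 8.84 in IL6Myc-4. No library of IL6Myc-5 or IL6Myc-2 (16.9 to 23.4) reached the lowest library of the other lines (35.6). Line means of Prdm1 spanned 1.18-fold and those of Bcl6 2.56-fold. Irf4 and Irf8, related factors of the same family, stood further apart: Irf4 had 55559 to 92242 counts per line and Irf8 0 to 4.

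Of the 4 members under the filter, Spib was the only one detected in every library, with 108 counts in all. Spib, an ETS factor of B cells, held 0.812, 1.02 and 0.920 CPM in the libraries of IL6Myc-2. The other 12 libraries held 0.0325 to 0.417 CPM, so IL6Myc-2 did not overlap them. The line means were 0.916 ± 0.10 in IL6Myc-2, 0.281 ± 0.13 in IL6Myc-5, 0.179 ± 0.06 in IL6Myc-1, 0.152 ± 0.10 in IL6Myc-4 and 0.115 ± 0.07 in IL6Myc-3. IL6Myc-2 had 52 counts and IL6Myc-3 had 9, a ratio per library size of 8.35 (95% interval 4.08 to 19.3, counting error only).

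Without the filter 21140 genes could be tested. In that fit Spib in IL6Myc-2 was 2.38 ± 0.42 (SE) log2 units above the mean of the other 4 lines (edgeR adjusted p = 4.82e-06), with 11.4% of genes called, and it kept its call with each library left out. On the log2(CPM + 1) scale limma gave 0.69 (adjusted p = 1.08e-06). A line mean under 1 CPM cannot reach the size threshold on that scale, so limma could make no call. The step over IL6Myc-5, the next line, was 1.67 ± 0.58 (adjusted p = 0.0197), in a pair with 9.60% of genes called. That call was lost without IL6Myc-2 replicate 2 (adjusted p = 0.064), IL6Myc-5 replicate 1 (0.105) or IL6Myc-5 replicate 2 (0.0512). Limma gave 0.58, again on a scale where no call was possible. Among the remaining lines no step between neighbours passed the test, with edgeR adjusted p-values of 0.483, 0.934 and 0.758.

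Pax5, the factor that commits cells to the B lineage and that Prdm1 represses, had 68 counts, in 9 of the 15 libraries. IL6Myc-2 held 14, 9 and 23 counts (0.669, 0.458 and 1.41 CPM) and IL6Myc-3 held 4, 3 and 9 (0.163, 0.111 and 0.292 CPM). IL6Myc-5 and IL6Myc-1 each had 3 counts over their 3 libraries, and IL6Myc-4 had 0. A count of 0 allows up to 3 counts, or 0.0376 CPM in IL6Myc-4. All libraries of IL6Myc-2 lay above all others. By counts per library size, Pax5 in IL6Myc-2 was 4.16-fold that in IL6Myc-3 (95% interval 2.31 to 7.86), 18.9-fold that in IL6Myc-5 (6.09 to 95.2) and 24.3-fold that in IL6Myc-1 (7.82 to 122), all for counting error only. Against IL6Myc-4, with its 0 counts read as 3, the ratio was 21.5, without allowance for counting error in IL6Myc-2.

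Without the filter, Pax5 in IL6Myc-2 was 4.52 ± 0.61 (SE) log2 units above the mean of the other lines (edgeR adjusted p = 1.46e-08). In that contrast 11.4% of genes were called. IL6Myc-4, which had no Pax5 count, enters that mean, so the size is loosely set. The alternatives were not run on this contrast. The Pax5 step over IL6Myc-3, the next line, was 2.08 ± 0.71 on the log2 scale (edgeR adjusted p = 0.0164), in a pair with 11.1% of genes called. That call was lost in DESeq2 (adjusted p = 0.0524), without IL6Myc-2 replicate 3 (0.19) and without IL6Myc-3 replicate 2 (0.0662). Limma gave 0.60, on a scale where line means this low cannot reach the size threshold. Spib and Pax5 shared IL6Myc-2 as their highest line, and neither shared it with Ebf1. IL6Myc-4, at the top for Ebf1, had no Pax5 count. In IL6Myc-2, immunoglobulin genes took 11.5 ± 0.11% of the counts, against 4.91% to 6.67% in the other lines. The T and NK markers summed to 20.1 to 21.9 CPM in IL6Myc-2, below IL6Myc-4 and above the other lines. The myeloid markers summed to 294 to 310 CPM there, against 142 to 208 CPM in IL6Myc-1, IL6Myc-3 and IL6Myc-5, with Itgam and Cd68 called higher. The part of these in the Spib and Pax5 levels was not tested.

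Bach2, a repressor of Prdm1 in B cells, had 88 counts in 13 libraries, and 40 of them came from 1 library. IL6Myc-5 held 1.59, 0.0531 and 0.190 CPM in its libraries, and the highest value in any other line was 0.408 CPM. Pooled over libraries, IL6Myc-5 had 0.654 CPM, and 0.133 CPM without replicate 1. The fit without the filter called IL6Myc-5 higher than the other 4 lines by 2.36 ± 0.57 (SE) log2 units (edgeR adjusted p = 0.000747). In that contrast 7.04% of genes were called. The difference was 0.12 without that library (edgeR adjusted p = 0.9998) and 0.38 in limma (adjusted p = 0.168). In each library of the study, 9 to 21 genes with at least 15 counts stood at least 4-fold above both other libraries of the line (on CPM + 0.1); in this one there were 19, Bach2 among them.

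Irf8, an interferon regulatory factor of B cells and myeloid cells, had 6 counts in all. IL6Myc-5 had 4 counts, all in 1 library, and IL6Myc-2 had 2. IL6Myc-1, IL6Myc-3 and IL6Myc-4 had 0, for which that limit is 0.0332, 0.0365 and 0.0376 CPM, and a difference between lines was not detectable at this depth. Without the filter, edgeR's F-test called Pax5, Spib and Bach2 beside Ebf1 and Bcl6, 5 of the 10 members against 25.7% of genes tested, and not Irf8 (adjusted p = 0.185). Of these, Bach2 drew 40 of its 88 counts from 1 library, and its F-test was not repeated without that library.

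Other regulators and targets place these members in the wider programme. Of 15 other plasma cell regulators, 13 were tested and 5 called over the lines, where 32.1% of all genes tested were called, with a median log2 range of 0.90. Ikzf3, which encodes Aiolos, held 48.1 ± 5.74 CPM in IL6Myc-2, against 2.51 ± 0.37 in IL6Myc-3, the lowest line. Batf, an AP-1 factor, held 1.96 ± 0.38 CPM in IL6Myc-2 and had no count in IL6Myc-1. Nfil3, a leucine zipper repressor, was highest in IL6Myc-1 at 13.4 ± 1.10 CPM and lowest in IL6Myc-4 at 4.38 ± 0.62, and Zbtb20, a zinc finger repressor, was highest in IL6Myc-2 at 266 ± 15.6 CPM and lowest in IL6Myc-3 at 89.4 ± 13.0. Atf6, the most abundant of the list and a sensor of the unfolded protein response, spanned 0.25 on the log2 scale. Ern1, whose product splices Xbp1 mRNA, was the remaining called gene and was named after its values were seen. It held 238 ± 7.29 CPM in IL6Myc-1 and 98.0 ± 1.67 in IL6Myc-3. Total Xbp1 differed between these lines by 0.03 ± 0.04 (SE) on the log2 scale (edgeR adjusted p = 0.570), and its splicing was not measured.

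Of 20 known Xbp1 targets in the secretory pathway, all were tested and 5 called, against 32.1% of all genes tested, with a median log2 range of 0.77, against 0.70 over all genes tested. By line mean, 11 of the 20 were highest in IL6Myc-2, the line with the least Xbp1, 5 in IL6Myc-5, 3 in IL6Myc-3, 1 in IL6Myc-4 and 0 in IL6Myc-1. The lowest mean was in IL6Myc-1 for 17, in IL6Myc-4 for 2 and in IL6Myc-2 for 1. Of all genes called in IL6Myc-2 against the other lines, 67.85% were higher there, and in IL6Myc-1 35.1% were. How many of all genes tested had their highest mean in each line was not counted. Serp1, a translocon-associated protein, held 2570 ± 79.6 CPM in IL6Myc-2 and 1080 ± 8.21 in IL6Myc-1. Sel1l, of the degradation complex of the endoplasmic reticulum, held 2168 ± 17.2 CPM in IL6Myc-2 and 936 ± 33.1 in IL6Myc-4. Dnajc3, a co-chaperone, held 305 ± 7.8 CPM in IL6Myc-2 and 104 ± 2.23 in IL6Myc-1, and Arfgap3, a Golgi traffic protein, 116 ± 5.76 and 33.4 ± 1.32 CPM in the same lines. Pdia6, a disulphide isomerase and the most abundant target, was not called, at 2518 ± 45.1 CPM in IL6Myc-5 and 1558 ± 36.7 in IL6Myc-1. Herpud1 was also called, at 279 ± 5.73 CPM in IL6Myc-2 and 134 ± 5.73 in IL6Myc-1, and is named after its values were seen.

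Plasma cell genes were expressed in every line. All 16 were tested and 11 were called over the lines, against 32.1% of all genes tested, with a median log2 range of 1.08. Jchain, the joining chain of secreted IgA and IgM and the most abundant, held 10600 ± 309 CPM in IL6Myc-2 and 4982 ± 52.2 in IL6Myc-3. Cd28, a costimulatory receptor, held 217 ± 5.75 CPM in IL6Myc-2 and 28.4 ± 2.27 in IL6Myc-5. Cd93 held 250 ± 1.06 CPM in IL6Myc-2 and 37.8 ± 0.41 in IL6Myc-1, and Derl3, of the degradation machinery of the endoplasmic reticulum, 344 ± 6.85 and 57.2 ± 2.81 CPM in the same lines. Tnfrsf17, which encodes BCMA, held 47.6 ± 3.50 CPM in IL6Myc-1 and 8.81 ± 0.29 in IL6Myc-2. The ranges of the 4 plasma cell factors, 0.23 to 0.52, lay below that median.

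Of 18 B cell genes, 6 reached the filter and 5 were called, against 32.1% of all genes tested, with a median log2 range of 1.90. Cd79b, the immunoglobulin beta chain of the receptor, was highest in IL6Myc-4 at 564 ± 20.5 CPM, as Ebf1 was, and lowest in IL6Myc-1 at 167 ± 12.2, again as Ebf1 was; it is named after its values were seen. Cd79a, its partner and a known Ebf1 and Pax5 target, held 2.78 ± 0.61 CPM in IL6Myc-2 and 0.491 ± 0.06 in IL6Myc-3. Ms4a1, which encodes CD20, held 205 ± 7.32 CPM in IL6Myc-5 and 54.9 ± 1.34 in IL6Myc-3, and Fcrla, an Fc receptor-like protein, 75.1 ± 1.98 CPM in IL6Myc-5 and 20.0 ± 1.25 in IL6Myc-1. Bank1, a B cell scaffold, held 52.8 ± 0.15 CPM in IL6Myc-2 and 13.5 ± 0.34 in IL6Myc-1. Blnk, the adaptor of the B cell receptor, was the most abundant and was not called, at 690 ± 17.5 CPM in IL6Myc-1 and 511 ± 6.39 in IL6Myc-3. Other genes of mature B cells were at or near 0: Cd22, a surface receptor, had 11 counts over the 15 libraries, and Cd72 and the kinase gene Blk had 0. These 3 lie outside the rule for named genes and were chosen after their values were seen.

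Of 20 other B cell transcription factors, 15 were tested and 3 called, against 32.1% of all genes tested, with a median log2 range of 0.65. Id2, an inhibitor of E proteins, held 6.58 ± 0.21 CPM in IL6Myc-3 and 0.294 ± 0.15 in IL6Myc-1. Bcl11a held 33.8 ± 0.29 CPM in IL6Myc-5 and 6.38 ± 0.79 in IL6Myc-2, and Runx3, a Runt domain factor, held 52.0 ± 1.87 CPM in IL6Myc-2 and 16.1 ± 0.55 in IL6Myc-4. Mef2c, the most abundant of the list, was not called, at 227 ± 7.19 CPM in IL6Myc-4 and 145 ± 4.33 in IL6Myc-2. Ciita, the activator of MHC class II genes that Prdm1 represses, had 14 counts in all and was not tested; it too was chosen after its values were seen.

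**Figure D4:**
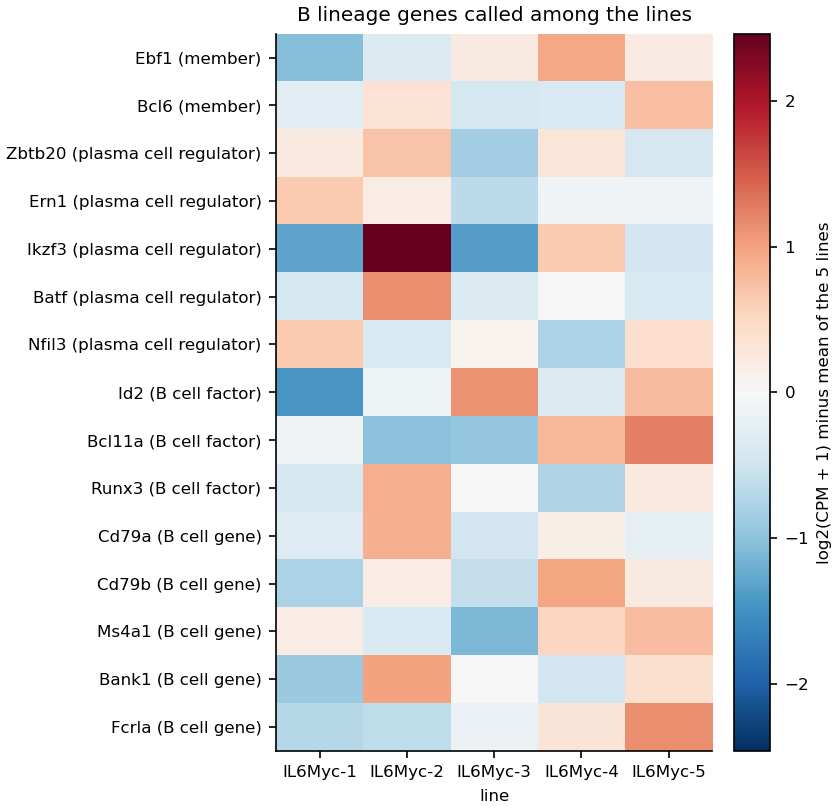
Log2(line mean CPM + 1) minus its mean over the 5 lines, red for higher and blue for lower. Shown are Ebf1, Bcl6 and the called genes of the 3 lists of other regulators and B cell genes. The genes do not share 1 order: Ebf1 and Cd79b are highest in IL6Myc-4, Bcl6, Bcl11a, Ms4a1 and Fcrla in IL6Myc-5, and Ikzf3, Batf, Runx3, Cd79a and Bank1 in IL6Myc-2.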

How the data were processed

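Per the labels' protocols, RNA came from the RNeasy mini kit and libraries from TruSeq Stranded Total RNA. The submitters' processing notes name Trim Galore 0.4.0, DESeq2 with no version and the GRCm39 build; which aligner, quantifier and annotation were used is not given in the sources used here. As deposited, the table is named for TPM, but its values were taken as estimated counts: the authors' columns sum to 19068543 to 41165599, and 30.8% to 54.3% of the values above 0 and under 1.5 lie within 0.02 of 1. A deposited column of row means (equal within 6e-05) was not used. Estimated counts adjusted for transcript length would carry that adjustment into the levels.

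Values were rounded to whole numbers. Genes that reached 1 CPM in 3 or more libraries entered 1 edgeR 4.0.16 quasi-likelihood fit (R 4.3.3, TMM factors 0.848 to 1.08) with the line as the single factor over all 15 libraries. Contrasts were an F-test over lines, each line minus the mean of the other 4, and the 10 pairs, with Benjamini-Hochberg adjustment over all genes tested. For the F-test, a call needs 1 log2 unit between the highest and lowest line. Each SE is the absolute log2 difference divided by the square root of its quasi-likelihood F statistic. Ratios of low counts carry exact 95% intervals, and 0 counts in a line are read as at most 3. The tests were tested on simulated data. Alternatives were DESeq2 1.42.0, limma 3.58.1 on log2(CPM + 1), other size factors and filters, library sizes without immunoglobulin genes, a replicate block and each library left out.

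The 3 libraries of a line held no identical pair and differed by more than sampling noise (chi-square per degree of freedom 4.54 to 20.1), so none was merged with another. They remain technical replicates of 1 line. Libraries with the same number in different lines did not deviate together, so the numbers do not pair them.

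Names matched a mouse symbol for 98.7% of rows, and 118 rows share a name. Exon lengths are unions over protein-coding transcripts of GENCODE vM21 basic, and promoter windows are RefSeq's for GRCm38.p6, not the submitters' build. The members and lists were chosen with earlier results of these data known. Beyond the 10 members, the genes named are the 4 called ones of a list with the largest range over the lines, its most abundant gene, and the 3 nearest profiles of each called member; exceptions are stated beside them, and a few genes that this rule or the lists hold are not reported here.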

Additional observations from a re-analysis of the deposited data

How the results depend on the processing

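Of 286 recomputed main counts, 263 stayed within 1.5 times of the value reported, and none of the 982 recomputed values of single genes or lists changed sign while called. Without the filter on low counts, 5 members differed over the lines (2 with it), against 25.7% of genes tested. By line, 2 members were called in IL6Myc-2 (0 with it), 1 in IL6Myc-3 (0), 3 in IL6Myc-4 (1) and 2 in IL6Myc-5 (1). Genes called in IL6Myc-1 to IL6Myc-5 numbered 2225, 2413, 1548, 1752 and 1489 (1472, 1493, 901, 1136 and 940), of 21140 tested (11773). Calls not given above were Pax5 higher in IL6Myc-3, and Pax5 and Bach2 lower in IL6Myc-4. Pax5 in IL6Myc-3 was called at 1.92 log2 units (edgeR adjusted p = 0.0268), though its 0.189 CPM lay under the 0.229 CPM mean of the other lines. IL6Myc-4, with no Pax5 count, enters that log2 difference. Member calls over the pairs numbered 19 (7), and 8 B cell genes were called (5). More genes, with fewer counts each, were tested without the filter. With at least 5 CPM asked, 2449 genes differed (3783), and 873, 844, 480, 645 and 495 were called by line, since fewer genes are tested. With limma on log2(CPM + 1), 924, 935, 426, 669 and 491 were called by line and 0 members in IL6Myc-5; the cause was not tested. For Spib, Bach2 and the Pax5 step over IL6Myc-3, the other alternatives were combined with no filter. That choice was made after seeing the data. There limma's sizes all fell below the threshold, which a line mean under 1 CPM cannot reach on the log2(CPM + 1) scale. Reversals were confined to uncalled differences near 0. Pou2af1 in IL6Myc-1 against the others, 0.0016, gave -0.0074 with DESeq2's size factors and -0.00745 in DESeq2, and -0.0367 to 0.0266 over the fits that left out 1 library. Xbp1 in IL6Myc-3, -0.0109, ranged from -0.0209 to 0.0079 over those fits. With 1 library left out, 3650 to 3784 genes differed over the lines, and by line 1393 to 1457, 1366 to 1486, 842 to 892, 1077 to 1136 and 902 to 933 were called; the member counts stayed at 2 over the lines, 1, 0, 0, 1 and 1. Depth limits Pax5, Spib, Bach2 and Irf8, with 6 to 108 counts over 15 libraries. Under a replicate block, 3785 genes differed (3783), the 2 members among them, and no call on a member changed; same-numbered libraries deviated together at r = -0.084 to 0.110, 7 of 15 were closest to their own number, and 1 of 30 pairs passed 0.1.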
